A study of Mus musculus with 8 samples.

Results

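The genes described are 8 transcription factors of pituitary development, Sox2, Sox9, Lhx3, Lhx4, Hesx1, Gata2, Pou1f1 and Nr5a1, chosen by name from 55401 listed genes for their known roles in the progenitors and in the other hormone lineages of the gland. They were followed in AtT-20 cells, a mouse corticotrope line that secretes the Pomc-derived hormone ACTH. The cells of all 8 libraries carried an ectopically expressed ER-Pax7, a fusion of the melanotrope factor Pax7 that tamoxifen activates. Tamoxifen was given for 0, 24, 48 or 72 h, with 2 RNA-seq libraries at each time. ER-Pax7 activity, tamoxifen itself and hours in culture cannot be told apart in this design, and vehicle-treated libraries were not used here. AtT-20 is an established tumour-derived line, so the levels describe that line and not pituitary tissue.

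In the developing pituitary, progenitors of Rathke's pouch express Hesx1, Lhx3, Lhx4, Sox2 and later Sox9, and their descendants take one of several hormone lineages. Pou1f1 directs the somatotrope, lactotrope and thyrotrope lineages. Gata2 acts in thyrotropes and gonadotropes and Nr5a1 (SF-1) in gonadotropes, while Tbx19 and Neurod1 mark corticotropes.

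Of the 8 factors, Gata2 had a signal above 1 in every library, Hesx1 was listed at 0 in every library, and the other 6 lay between. The signal, as normalized by the authors, is read here from the values as the mean read coverage over the exons of a gene. The scaling rule is not stated. On this reading it is per length, so levels can be set side by side between genes. A gene is called on at 1 or more in every library, near 0 at under 0.1 in every library, and low in the remaining cases. These words name ranges of the signal, not tests. By them 1 factor was on (Gata2), 3 were low (Lhx3, Sox2 and Sox9), 3 were near 0 (Nr5a1, Lhx4 and Pou1f1) and 1 was listed at 0 (Hesx1). The value listed for Lhx3 equalled that of a neighbouring gene in every library. Among all listed genes, 8770 (15.8%) were on and 35432 (64.0%) stayed under 0.1 in every library.

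RefSeq start-site windows (build GRCm38.p6) were found for 6 of the 8 factors; Sox9 and Nr5a1 had no entry. Windows are printed for Gata2 and Sox2, 2 of the higher factors, and for the 2 lowest, Pou1f1 and Hesx1, to show the range of CpG, the base pair step at which vertebrate DNA is methylated. The pairs were chosen with their CpG known, so that difference is no result about level. Where a gene has several windows, the most upstream is printed. Each line gives the 250 bases before the start site, 5′ to 3′ on the strand of the gene, with every CpG in capitals.
Gata2: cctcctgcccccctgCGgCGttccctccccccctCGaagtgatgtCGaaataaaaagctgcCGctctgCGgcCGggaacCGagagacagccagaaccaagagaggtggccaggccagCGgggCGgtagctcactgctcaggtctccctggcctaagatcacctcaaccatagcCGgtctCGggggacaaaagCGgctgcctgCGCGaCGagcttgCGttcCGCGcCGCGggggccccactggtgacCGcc
Sox2: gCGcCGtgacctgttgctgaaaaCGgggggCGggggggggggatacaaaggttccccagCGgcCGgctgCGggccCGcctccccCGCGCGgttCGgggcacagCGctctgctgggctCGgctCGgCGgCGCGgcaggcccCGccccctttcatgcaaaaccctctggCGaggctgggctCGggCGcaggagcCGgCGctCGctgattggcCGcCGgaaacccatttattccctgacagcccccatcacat
Pou1f1: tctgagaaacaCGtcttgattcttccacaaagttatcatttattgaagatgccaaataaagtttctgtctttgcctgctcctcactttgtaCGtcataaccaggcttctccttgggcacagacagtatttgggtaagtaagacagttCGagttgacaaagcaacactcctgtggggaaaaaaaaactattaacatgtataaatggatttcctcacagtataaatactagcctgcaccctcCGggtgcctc
Hesx1: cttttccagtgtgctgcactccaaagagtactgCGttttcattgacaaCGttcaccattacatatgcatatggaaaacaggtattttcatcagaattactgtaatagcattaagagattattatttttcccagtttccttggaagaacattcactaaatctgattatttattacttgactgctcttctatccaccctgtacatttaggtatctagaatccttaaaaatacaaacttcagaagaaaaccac
The Gata2 window (chr6:88193641-88193890, plus strand) held 22 CpG and the Sox2 window (chr3:34649745-34649994, plus strand) 27. The Pou1f1 window (chr16:65520262-65520511, plus strand) held 4 and the Hesx1 window (chr14:27000112-27000361, plus strand) 2. Of the windows not printed, that of Lhx4, a factor near 0, held 14 CpG, those of Lhx3 held 11 and 22, and the second windows of Gata2 and Pou1f1 held 24 and 0. The median over 32851 RefSeq windows of the same length was 6 CpG. The word TATAAA, searched on both strands, occurred 2 times in the printed Pou1f1 window and 1 time in the first Lhx3 window, in none of the other 7 windows of the factors, and in 12.4% of all windows. These are letters of the reference sequence, and methylation was not measured in these libraries.

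The libraries and cells were checked against their labels. Summed signal ranged from 164236 to 178548, and read depth is not given, so no counting interval can be attached to a value. The most frequent value above 0 in a library was 0.0122 to 0.0170, and it is used below as a unit called a step. Its meaning is not given, and listed values also fell below 1 step and between whole steps. A signal of a few hundredths is only a few times this unit. Pax7 was at 12.6 to 14.4 and Pomc at 499 to 679 in the 8 libraries, and 6 of 8 corticotrope markers were on; of the others, the receptor genes Crhr1 and Avpr1b, the first was low and the second near 0. No gene of the fibroblast, immune and endothelial lists was on (0 of 13 genes), and the highest was Col1a1 at 0.222 to 0.537. None of 10 housekeeping genes was at 0 in any library. Of the libraries of 24 to 72 h, 72 h replicate 2 was nearest in expression to a library of its own time, and the other 5 were nearest to one of another time. Whether the replicates came from separate cultures is not labelled, so p-values speak of the spread between libraries, which may be technical.

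The signal listed for Lhx3 could not be told apart from that of its neighbourhood. Gm13553, the gene listed next to it (GRCm38 chr2:26186729-26191678, minus strand; Lhx3 is at chr2:26200212-26208289 on the same strand), shares no exonic base with it and had the same signal within 1.02% in every library. The ratio of Lhx3 to Gm13553 lay between 0.997 and 1.01, and their difference in signal was between -0.00195 and 0.00570. Gm27196, an antisense gene on the other side that shares 188 bases (6.17%) of the Lhx3 exons, was higher than Lhx3 by 0.141 to 0.199 in each library. The next genes outward, 1810012K08Rik at 1.81 to 2.11 and Qsox2 at 4.03 to 4.73, did not have this level. Equality within 2% in all 8 libraries with an adjacent gene that shares no exonic base was found for 24 of 17871 tested genes (0.134%), and Lhx3 was the 1 such gene among all genes of the lists used here. The cause was not tested. Each Lhx3 value below is one it shares with Gm13553, and whether Lhx3 itself is on or silent cannot be read from it.

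**Figure D1:**
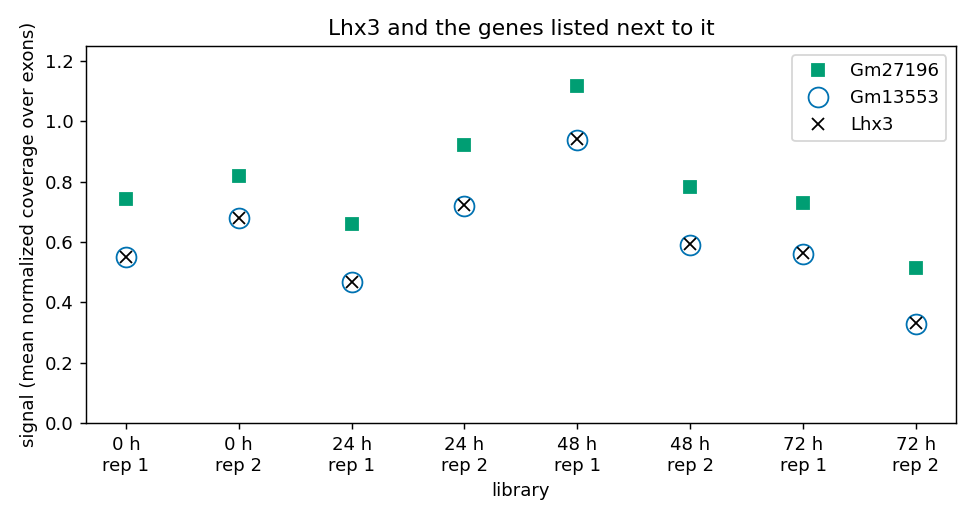
Signal (mean normalized coverage over exons, linear axis) of Lhx3 (crosses), Gm13553 (open circles) and Gm27196 (squares) in each of the 8 libraries. The crosses lie inside the circles in every library, with ratios between 0.997 and 1.01, and Gm27196 runs 0.141 to 0.199 above them.

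None of the other 7 factors had such a neighbour. Sox2 (chr3:34650405-34652461) lies inside the span of the long noncoding gene Sox2ot without sharing an exonic base, and the exons of Sox2ot had a mean signal of 0.00894. For Gata2 (chr6:88193891-88207032), the 4 nearest listed genes had means of 0.00415 to 0.106. The 4 nearest to Sox9 (chr11:112782224-112787760) had means of 0 to 0.00183. Gata2, Sox9, Lhx4 and Hesx1 overlapped no other gene. Pou1f1 shared 136 of its 3891 exonic bases with Gm49631, which was listed at 0, and Nr5a1 lies in part inside the span of Nr5a1os (mean 0.00553) without sharing an exonic base.

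**Figure D2:**
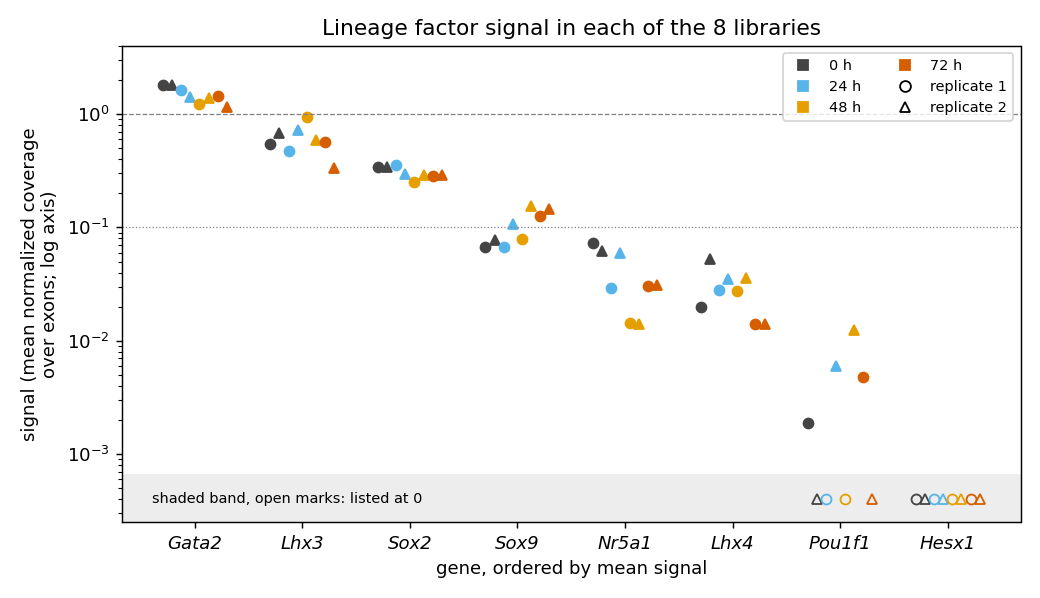
Signal of each factor (log axis) in the 8 libraries, by tamoxifen time (colour) and replicate (circle, triangle); open marks in the shaded band are libraries in which the gene was listed at 0. The dashed line at 1 and the dotted line at 0.1 are the limits used for on and near 0; Gata2 lies above the first in every library, and Nr5a1, Lhx4, Pou1f1 and Hesx1 lie below the second.

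Gata2, a zinc finger factor that in the gland is known from thyrotropes and gonadotropes, was the highest of the 8. Its signal was 1.80 and 1.82 before tamoxifen, 1.64 and 1.42 after 24 h, 1.23 and 1.40 after 48 h, and 1.46 and 1.15 after 72 h. All 6 tamoxifen libraries were below both 0 h libraries; both 48 h libraries were also below both of 24 h, and the 72 h libraries overlapped those of 24 and 48 h. Its mean of 1.49 over the 8 libraries lay above that of 86.2% of listed genes, and the median of tested genes was 1.15. The highest Gata2 library was 1.58 times the lowest. The median of that ratio was 1.29 for the 4026 tested genes with a mean within 1.5 times that of Gata2. In bulk RNA, fewer cells that express a gene and less RNA per cell cannot be told apart. Among the GATA family, Gata4 was low at 0.142 to 0.262, Gata1 and Gata3 were near 0, and Gata5 and Gata6 were listed at 0. The cofactor Zfpm1 (FOG1), which binds GATA factors, was low by the range at 0.789 to 1.42, and Zfpm2 (FOG2) was listed at 0.

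Sox2, a factor of pituitary stem and progenitor cells, was low in every library. The 0 h libraries had a signal of 0.340 and 0.343, and values were 0.353 and 0.295 after 24 h, 0.253 and 0.293 after 48 h, and 0.284 and 0.291 after 72 h. The 48 and 72 h libraries were below both at 0 h, while the 24 h libraries fell on both sides of them. Of all tested genes, 44.2% lay apart from 0 h at 48 h and 47.6% at 72 h, in either direction. Its highest library was 1.39 times its lowest, against a median of 1.65 for the 2608 tested genes with a mean within 1.5 times that of Sox2.

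Sox9, a factor of later progenitors and of many other epithelia, stood around the lower limit. Its signal was 0.0671 and 0.0767 without tamoxifen, 0.0665 and 0.106 after 24 h, 0.0790 and 0.156 after 48 h, and 0.127 and 0.144 after 72 h. Both 48 h and both 72 h libraries were above those of 0 h, and replicate 2 was the higher at 4 of 4 times. A separation from 0 h in either direction was found for 44.2% of tested genes at 48 h and 47.6% at 72 h. The Sox9 values correspond to 3.92 to 11.5 steps, which is not a number of reads, because the signal is read as an average over exons. The highest Sox9 library was 2.345 times the lowest, against a median of 2.27 for 1523 tested genes of like mean. Among the SOX family, 2 of 20 genes were on, Sox4 at 2.30 to 3.54 and Sox11 at 1.52 to 2.19, both of the SOXC group known from neural and endocrine precursors; the third of that group, Sox12, lay at 0.908 to 1.15.

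Lhx3 and Lhx4, paired LIM homeodomain factors needed for growth of the pouch, were listed at different levels. The Lhx3 signal, which equals that of its neighbour, was 0.549 and 0.678 without tamoxifen, 0.468 and 0.722 after 24 h, 0.941 and 0.592 after 48 h, and 0.565 and 0.331 after 72 h. The highest library was from 48 h and the lowest from 72 h, and each time overlapped 0 h. Its highest library was 2.84 times its lowest, against a median of 1.44 for 3277 tested genes of like mean. Lhx4 was near 0, with a signal of 0.0199 and 0.0523 without tamoxifen, 0.0280 and 0.0350 after 24 h, 0.0274 and 0.0357 after 48 h, and 0.0141 and 0.0140 after 72 h. Both 72 h libraries were below the others, at about 1 step each. Among tested genes, which Lhx4 is not, 47.6% lay apart from 0 h at 72 h in either direction. Of the 12 LIM homeobox genes, 0 were on; Lmx1b (0.833 to 1.49) and Lhx5 (0.525 to 0.849) had the highest means and Isl1 was listed at 0. The adaptor genes Ldb1 (4.21 to 5.04) and Ssbp3 (5.92 to 6.44), whose proteins bind LIM factors, were on, as were Lmo4 (3.60 to 4.96) and Lmo1 (2.70 to 3.60), whose LIM-only proteins bind the same adaptor.

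Hesx1, a homeodomain repressor of the early pouch, was listed at 0 in all 8 libraries. Both genes beside it in the list, Gm41115 at 0.00947 to 0.0883 and Il17rd at 0.0263 to 0.0442, were above 0 in every library. Of the corepressor genes, Ncor1 was on at 2.15 to 2.67, and Tle1, whose protein binds Hesx1, was low by its range of 0.923 to 1.40.

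Pou1f1 (Pit-1) was near 0. It was listed at 0 in 4 libraries and, in 1 library of each time, had a signal of 0.00188 without tamoxifen, 0.00600 after 24 h, 0.0126 after 48 h and 0.00476 after 72 h, all under 1 step. Each time overlapped 0 h. Of the hormone genes of its lineages, Gh was near 0, Prl and Tshb were listed at 0, and of the receptor genes Ghrhr was near 0 and Ghsr was listed at 0. The 2 on genes of the 12 in that list were the somatostatin receptors Sstr2 (2.45 to 3.62) and Sstr5 (up to 1.71), which corticotropes also use. Among the 14 POU genes, Pou2f1 (1.20 to 1.41), a widely expressed factor, was the 1 on.

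Nr5a1, the orphan nuclear receptor of gonadotropes, was near 0. Its signal was 0.0722 and 0.0621 without tamoxifen, 0.0294 and 0.0593 after 24 h, 0.0145 and 0.0141 after 48 h, and 0.0302 and 0.0313 after 72 h. All 6 tamoxifen libraries lay below both 0 h libraries, and the values of the 8 libraries correspond to 1.04 to 5.58 steps. The share of genes of such low signal for which this holds was not counted. Among tested genes, which Nr5a1 is not, 40.5% to 47.6% lay apart from 0 h at a single time. Its relative Nr5a2 was near 0 as well, at 0.0357 to 0.0824. Gata2 was the 1 on gene of the 12 in the gonadotrope list. Fshb, Foxl2 and Nr0b1 were listed at 0, Cga and Gnrhr were near 0, and Lhb was low at 0.179 to 0.236, with 20.4% of its exonic bases inside exons of Ruvbl2.

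In the order of mean level, neighbouring factors were told apart in some places only. Gata2 was above the Lhx3 signal in 8 of 8 libraries with no overlap of their ranges. The Lhx3 signal was above Sox2 in 8 of 8 libraries, but their ranges over libraries overlapped. Sox2 exceeded Sox9 in 8 of 8, with ranges apart and a ratio of means of 2.98. Sox9 was above Nr5a1 in 7 of 8 libraries and Nr5a1 above Lhx4 in 6 of 8, with overlapping ranges. Lhx4 exceeded Pou1f1 in 8 of 8, with ranges apart, and Pou1f1 exceeded Hesx1 in the 4 libraries in which it was above 0.

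**Figure D3:**
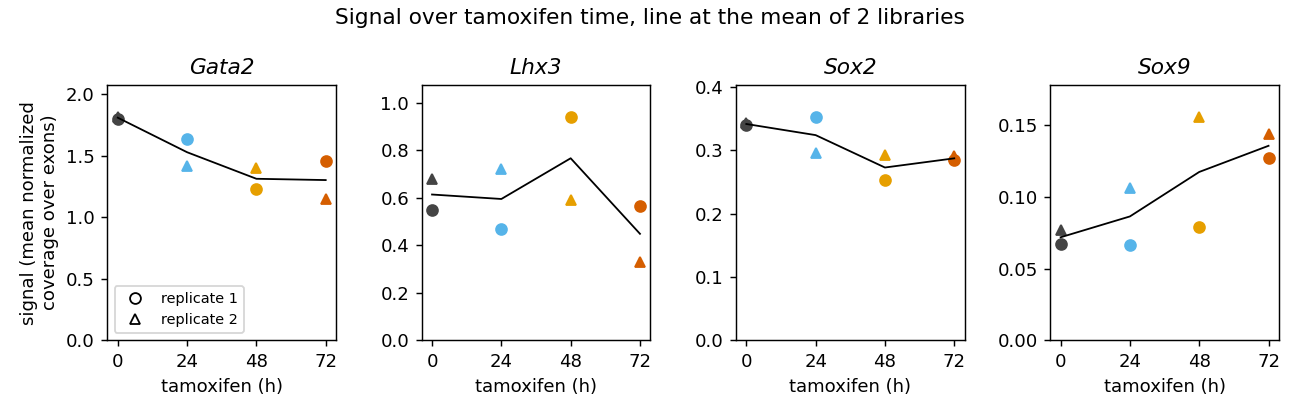
Signal (linear axis from 0) against hours of tamoxifen for the 4 factors that passed the filter, with 1 mark per library and a line through the mean of the 2 libraries. Gata2 runs from 1.80 and 1.82 at 0 h to 1.46 and 1.15 at 72 h, and Lhx3, whose signal equals that of its neighbour, spans 0.331 to 0.941 with no steady course.

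None of the factors passed the test for a change with tamoxifen. The 17871 genes whose mean signal reached 0.1 were tested with limma on log2(signal + 0.1), a scale that understates changes of low genes, and p-values were adjusted by Benjamini-Hochberg over all of them at 0.05. Of the 8 factors 4 passed this filter. Calls among the factors were 0 of 4 at 24 h, 48 h and 72 h and by the F test over all times. Across all tested genes, 0.162% were called at 24 h, 0.548% at 48 h, 1.57% at 72 h and 0.353% by the F test, so 0 of 4 is near the background. Leaving out 0 h replicate 1 or 0 h replicate 2 brought the calls at 72 h from 281 genes to 17 or 14, and still 0 of the 4. At an unadjusted p under 0.05, Gata2 alone of the 4 was below it, at 48 and 72 h and by the F test. Of all 17871 tested genes, 1775 were below it at 48 h, 2499 at 72 h and 2227 by the F test. Against that background 1 of 4 is not read as a result about the factors. In the fit without a filter, 0 of the 3 further factors with any signal were called. That fit called 3, 15 and 78 of 37675 genes at 24, 48 and 72 h and 9 by the F test, so 0 of 3 is near its background.

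Gata2 gave the smallest adjusted p among the 4 tested. Its mean signal was 1.81 ± 0.00962 (SD, n = 2) without tamoxifen, 1.53 ± 0.158 after 24 h, 1.31 ± 0.122 after 48 h and 1.30 ± 0.215 after 72 h. The log2 change at 72 h was -0.45 with a 95% interval of -0.75 to -0.16 and an adjusted p of 0.148 in the limma fit. At 48 h it was -0.44, with a limma adjusted p of 0.264, and at 24 h -0.23, with an adjusted p of 0.537. The 0 h libraries differed by less than those of any later time.

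The other 3 tested factors lay further from the threshold. For Sox2 the log2 change was -0.06 at 24 h, -0.25 at 48 h and -0.19 at 72 h, each with a standard error of 0.12, and limma adjusted p-values of 0.883, 0.580 and 0.561. Sox9 gave 0.11, 0.32 and 0.46, each with a standard error of 0.22, and adjusted p-values of 0.884, 0.720 and 0.409. For the Lhx3 signal the values were -0.06, 0.26 and -0.41, with a standard error of 0.28 and adjusted p-values of 0.960, 0.851 and 0.585. The intervals still allow sizeable changes: at 72 h that of Sox9 ran from -0.05 to 0.97 and that of the Lhx3 signal from -1.07 to 0.26. Nr5a1, taken from the limma fit without a filter, had log2 changes of -0.22, -0.55 and -0.35 with adjusted p-values of 0.683, 0.247 and 0.326.

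**Figure D4:**
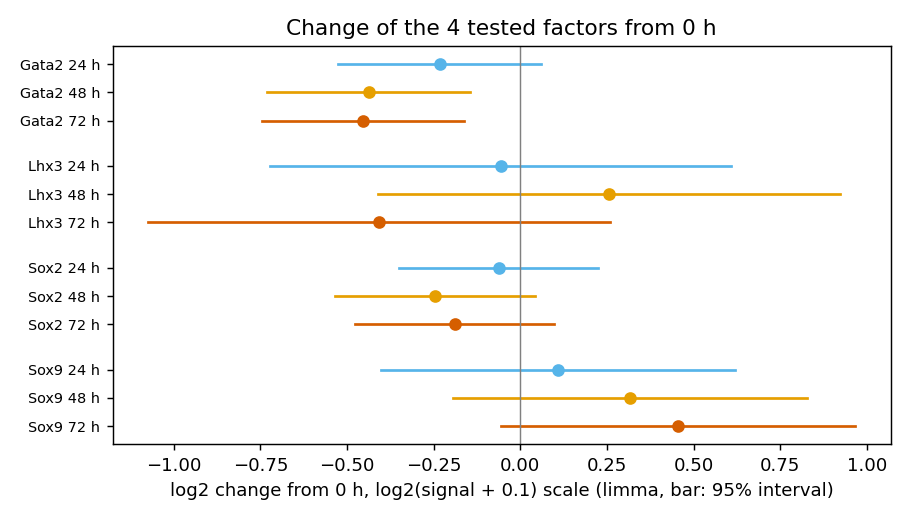
Log2 change from 0 h on the log2(signal + 0.1) scale for the 4 tested factors at 24, 48 and 72 h (points) with the 95% interval of the limma fit before adjustment (bars). The Gata2 intervals at 48 and 72 h lie below 0, and each other interval crosses it; adjusted over all genes, the lowest p of the 12 is 0.148.

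Groups without overlap were common among all genes and are read against that share. Against 0 h, both later libraries lay outside the range of the 2 at 0 h on one side for 40.5% of tested genes at 24 h, 44.2% at 48 h and 47.6% at 72 h. Of the 4 tested factors this held for 1 at 24 h (Gata2), for 3 at 48 h and for 3 at 72 h (Gata2, Sox2 and Sox9 at both). Sox9 is among the tested genes only through its higher late libraries, so its place in these counts is no support for a change. The comparisons share the 0 h libraries. The median log2 change of the 4 was -0.06, 0.00 and -0.30 at the 3 times, and that of all tested genes was 0.01, 0.00 and 0.01.

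Among 26 genes of pituitary progenitors and early patterning, 6 were on, 7 low, 7 near 0 and 6 listed at 0. Those on included Cdh2 (3.42 to 4.09), which encodes N-cadherin, and Six6 (2.23 to 3.38), a homeodomain factor of the early pouch. Pitx1, a homeodomain factor of the whole gland, was on at 1.83 to 2.14, and Otx2, Sox3 and Isl1 were listed at 0. Of the stem cell markers in the list, Klf4 was on at 2.43 to 2.91, Cxadr was low at 0.953 to 1.39, S100b, Cdh1, Gfra3 and Nes were near 0, and Gfra2 was listed at 0. Of the 13 genes tested in this list, 0 were called in either direction at any time. Beside them, the corticotrope factors Tbx19 (16.3 to 23.2) and Neurod1 (3.93 to 5.08) lay well above every one of the 8 factors.

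**Figure D5:**
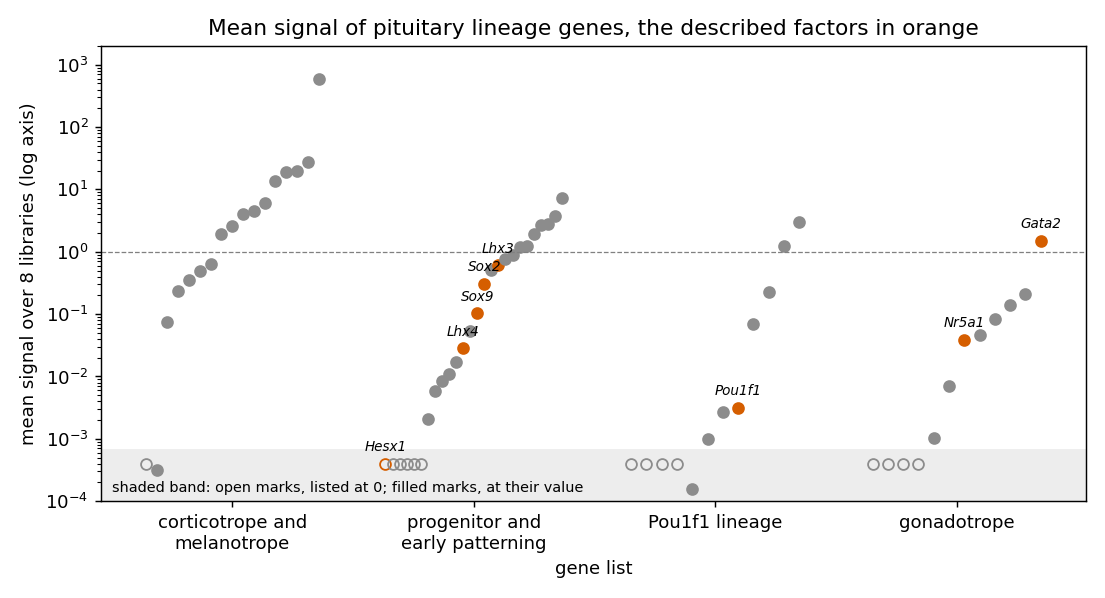
Mean signal over the 8 libraries (log axis) of the genes in 4 lists, each sorted by level, with the described factors in orange and named; open marks in the shaded band are genes listed at 0 and the dashed line is at 1. In the corticotrope and melanotrope list 10 of 17 genes are on, in the progenitor list 6 of 26, in the Pou1f1 list 2 of 12, and in the gonadotrope list Gata2 alone.

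In all 10 lists of related factors, families and cofactors, 128 genes were not among the 8. The lists were chosen with earlier results of these data known, so the share called in them is no measure of enrichment. Over all tested genes 0.162% were called at 24 h, 0.548% at 48 h and 1.57% at 72 h. Of the 128 genes, 65 were tested and 7 were called at some time. Of those that act with the factors described, Tle3, a Groucho corepressor, had a signal of 0.871 and 0.824 without tamoxifen, 0.653 and 0.595 after 24 h, 0.466 and 0.470 after 48 h, and 0.403 and 0.434 after 72 h. It fell, with a log2 change of -0.87 ± 0.09 (SE) and an adjusted p of 0.00885 at 72 h in the limma fit, and it was the 1 of 21 tested cofactors called. Sstr5 was lower at 48 and 72 h, with a log2 change of -0.59 and a limma adjusted p of 0.0269 at 72 h. Sox4 was lower at 72 h, by a log2 change of -0.51 with an adjusted p of 0.0441, and 54.6% of its exonic bases are also exons of Gm26735. The orphan receptor gene Nr4a3 was higher at 72 h, with a log2 change of 1.03 and an adjusted p of 0.0268. Each of these 4 calls at 72 h was lost when any 1 of the 4 libraries of 0 and 72 h was left out, with limma adjusted p-values of 0.0541 to 0.114 for Tle3, 0.112 to 0.207 for Sstr5, 0.163 to 0.277 for Sox4 and 0.151 to 0.190 for Nr4a3. Those of Sstr5, Sox4 and Nr4a3 were also lost when either 48 h library was left out (0.0605 to 0.0822) and without a filter (0.0866 to 0.127), and that of Sox4 without the intensity trend (0.0810). The direction held in each fit without a 0 or 72 h library. In the other fits named it could not change, because they return the same log2 change. The calls at 48 h were kept in 6 of 15 alternative fits for Sstr5 and in 6 of 14 for Tle3. The others called were Nr4a2, which was lower, and the melanotrope genes Pcsk2 and Oacyl, which were higher, at each of the 3 times; at 72 h Nr4a2 lost its call when any 1 of the 4 libraries of 0 and 72 h was left out (0.0637 to 0.118), Pcsk2 without 0 h replicate 2 (0.0767), and Oacyl in none of the fits. At 24 h the call was kept in 12 of 15 alternative fits for Nr4a2, in 3 of 14 for Pcsk2 and in 6 of 14 for Oacyl, and at 48 h in 10 of 15, 10 of 14 and 10 of 14.

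The genes most like each tested factor across the 8 libraries were taken by the Pearson correlation of log2(signal + 0.1), among genes with a mean of at least 1. The 8 points include 4 pairs of libraries that share a time, and the highest of very many correlations is high by selection. For Gata2 they were Gdpd1 (r = 0.985) and Gpt2 (r = 0.975). For Sox2 they were Esrp1 (r = 0.990) and Pofut2 (r = 0.962), and for Sox9 Odr4 (r = 0.977) and Oxld1 (r = 0.972). For the Lhx3 signal the values were lower, with Usp14 at 0.926 and Gpbp1l1 at 0.921.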

How the data were processed

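RNA was sequenced after ribosomal RNA depletion, per the labels' protocols, from 8 libraries in 4 groups of 2 assigned by their labels. The labels' molecule field names DNA, against the protocols and the series design, and the values were read as RNA. The authors deposited a normalized signal per gene, read here from the values as mean coverage over merged exons; the scaling rule, counting tool, use of strand and read depth are not stated there or in the labels. The submitters' processing notes name HISAT2 2.2, SAMtools 1.12 and deepTools 3.5. Coordinates are GRCm38; 54349 gene identifiers (98.1%) occur in GENCODE M21. Values were fitted as log2(signal + 0.1) with limma 3.58.1 in R 4.3.3, for genes with a mean of at least 0.1, with group as the only term, an intensity trend and 4 residual degrees of freedom, and Benjamini-Hochberg adjustment; the fit was tested on simulated data. Named genes were the 8 factors, every called gene and the 3 highest of each related list, the 2 most alike genes per tested factor, overlapping genes, and Pax7 and Pomc; others, neighbours included, were chosen after their values were seen; some genes the rule names are not reported here. Alternatives were another pseudocount, other filters, other scalings, no trend, a replicate block and leaving out each library. Members and lists were chosen with earlier results of these data known.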

Additional observations from a re-analysis of the deposited data

How the results depend on the processing

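Of 171 recomputed log2 changes of the tested factors, 166 kept their direction and none passed the threshold; the lowest adjusted p in any alternative was 0.126, for Gata2 at 72 h with the filter at a mean of 1 and a pseudocount of 1 together. Fits without a filter, without the trend or with the block return the log2 changes already given. So do fits without a library of another later time. In those the direction was fixed, so 166 of 171 is no measure of how firm the directions are. The 5 reversals came from leaving out a library that enters the comparison. Lhx3 at 24 h became 0.07 without 0 h replicate 2 and 0.21 without 24 h replicate 1. Lhx3 at 48 h became -0.039 without 48 h replicate 1. Without 24 h replicate 2, Sox2 at 24 h became 0.036 and Sox9 at 24 h -0.045. Over all alternative fits Lhx3 ranged from -0.32 to 0.21 at 24 h and from -0.039 to 0.55 at 48 h. At 24 h Sox2 ranged from -0.16 to 0.036 and Sox9 from -0.045 to 0.26. At a level of 2, 0 factors were on.

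Counts of called genes over the whole table depended strongly on the setting. With the filter at a mean of 1 and a pseudocount of 1 together, 53 genes were called at 48 h and 33 by the F test. Without a filter the counts were 3, 15 and 78 at 24, 48 and 72 h and 9 by the F test. Without the intensity trend 56 were called at 48 h. Leaving out 1 library gave 1 to 103 genes at 24 h, 2 to 113 at 48 h, 14 to 376 at 72 h and 3 to 212 by the F test, with 14 or 17 at 72 h without a 0 h library; the loss of a residual degree of freedom is part of that setting. With the replicate number as a block, 13, 38 and 183 genes and 27 by the F test were called. Deviations of same-numbered libraries correlated at 0.0203 to 0.152 over 6 pairs of times, all positive. The 24 h and 48 h libraries of replicate 1 were nearest in expression to 72 h replicate 1. Those of replicate 2 at 24 h and 48 h were nearest to each other, while 72 h replicate 1 was nearest to 48 h replicate 2. Whether same-numbered libraries share more than a number was not tested. Among the related genes the block ended the calls of Sox4 at 72 h (adjusted p = 0.0702), Sstr5 at 48 h (0.0634), Tle3 at 48 h (0.0688) and Pcsk2 at 24 h (0.0654). The related genes' alternatives were added after seeing the data: 84 of 216 lost the call.

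The unknown depth limits every value of a few hundredths, and Lhx3 cannot be separated from its neighbour at any depth given here.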
